A study of Drosophila melanogaster with 18 samples.

Results

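Heat shock genes and the cold-induced gene Fst were followed in an array comparison of Drosophila melanogaster moved to a banana diet with flies kept on a cornmeal diet. The set comprised every probe whose annotation gave a single gene symbol that begins with Hsp and a digit or with Hsc70, or that is DnaJ-1 or Fst. It held 9 probes for 9 genes, of 5620 probes on the array and 4574 genes named by a single-gene probe. The genes were the small heat shock genes Hsp22, Hsp26 and Hsp27, the large chaperone genes Hsp60A, Hsp60B, Hsc70-5 and Hsp110, the co-chaperone gene DnaJ-1, and Fst. All 9 had a value in each of the 18 columns of the table, so no member was lost to missing values. The 665 probes annotated to several genes or to none could not enter the set. No gene named Hsp68, Hsp70 or Hsp83 was in it, so the large chaperone genes here do not stand for those.

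Each slide was hybridised in 2 colours and printed with 3 sets of spots, and each of the 18 samples is 1 spot set of 1 slide. Every slide carried total RNA of the banana group in one channel and of the cornmeal control in the other. The 6 slides formed 3 dye-flip pairs, in which the dyes were exchanged between the slides: slides 2 and 3 are called pair 1, slides 29 and 30 pair 2, and slides 28 and 25 pair 3. Banana RNA was in channel 1 on slides 2, 30 and 28, and cornmeal RNA was in channel 1 on slides 3, 29 and 25. The labels give no strain, sex, age, stage, tissue or time on banana, and they do not say whether the pairs came from separate cultures. Spread between the 3 pairs is what the p-values measure, and it may be technical.

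The direction of the deposited ratio is not stated, so no diet can be named as the higher one. Every slide was turned to the sign it would have with banana RNA in channel 1. If the table holds channel 1 over channel 2, positive ratios mark transcripts more abundant on banana, and if it holds channel 2 over channel 1, those more abundant on cornmeal. The ratios were taken as log2, which is an inference from their range. Columns held 4860 to 5149 values, and the number of slides limits the precision of every ratio. In whole animals or bulk tissue, a change in the number of cells of a type and a change in RNA per cell cannot be told apart.

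Heat shock proteins are molecular chaperones that keep other proteins folded. Small heat shock proteins bind unfolding proteins without using ATP and hold them until the ATP-driven chaperones, such as the Hsp70 and Hsp60 machines, refold them, and J-domain proteins such as DnaJ-1 deliver clients to Hsp70. In Drosophila the small heat shock genes are induced by heat through the heat shock factor Hsf, and several of them are also induced by the moulting hormone ecdysone during normal development. Fst, also called Frost, is known for its induction in flies that recover from cold.

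Fst was the 1 member with the same sign on every slide, and the small heat shock genes were far from 0 mainly in pair 1. Fst averaged a log2 ratio of -1.10 ± 0.193 (SD, n = 3 pairs), a 2.15-fold difference. Hsp26 averaged 1.04 ± 1.62, Hsp22 0.89 ± 0.776 and Hsp27 0.38 ± 0.701, with SDs of about the size of the mean or larger. The 4 large chaperone genes averaged between 0.017 and 0.23. No member passed the adjusted threshold of the diet test. If the deposited values had been turned beforehand, the means of Hsp22, Hsp26 and Hsp27 would be -0.18, -0.39 and -0.15, and that of Fst -0.26. As deposited, the slides of pairs 1, 2 and 3 correlated negatively across all rows, with r = -0.20, -0.38 and -0.087.

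In that test, limma on the 3 pair ratios of all 4723 rows with Benjamini-Hochberg adjustment, 0 of the 9 members passed an adjusted p of 0.05, and of all rows 0% passed. An unadjusted p under 0.05 was found for 1 of the 9 members, Fst, against 8.05% of all rows, so the share of the members was near the background. A positive mean ratio was found for 8 of the 9 members, against 50.1% of all rows. The 3 pairs had one sign for 4 of the 9, namely Fst, Hsp22, Hsc70-5 and Hsp60B, against 30.5% of all rows. Positive in all 3 pairs were 3 of the 9, against 15.3%. One sign on all 6 slides was found for 1 of the 9, against 6.65%.

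**Figure D1:**
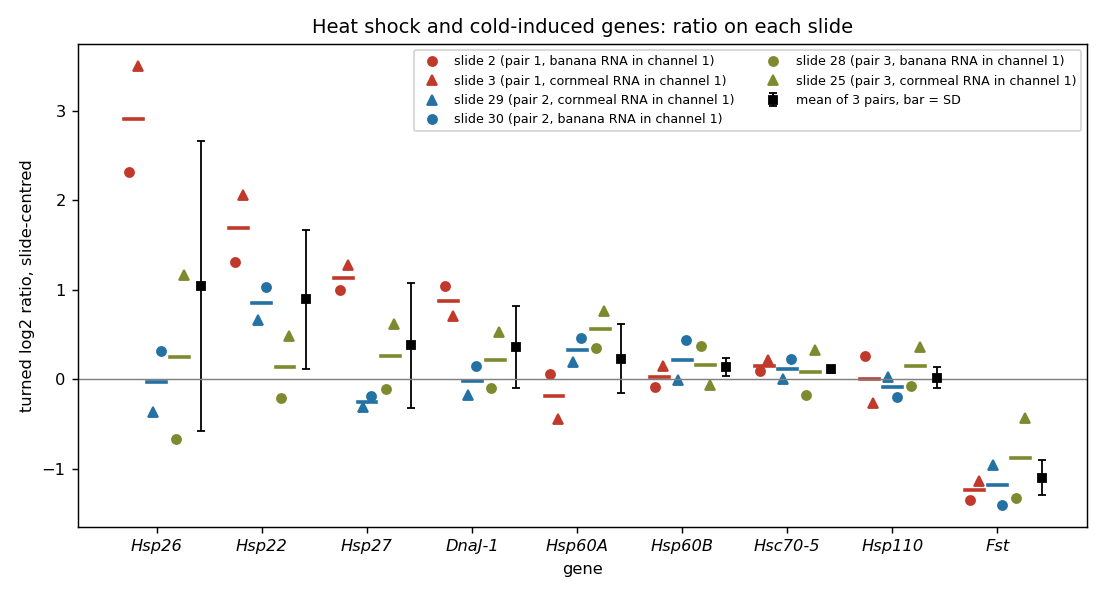
Turned, slide-centred log2 ratio (vertical axis) of the 9 genes (horizontal axis) on each of the 6 slides, with circles for slides with banana RNA in channel 1 and triangles for the others, colours for the flip pair, short lines for the pair mean and black squares for the mean of the 3 pairs with its SD. Hsp26 reached 2.32 and 3.50 on the slides of pair 1, the large chaperone genes lay between -0.45 and 0.77 on all slides, and Fst lay below 0 on all 6.

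Of the small heat shock genes, Hsp26, whose product is a cytosolic small chaperone, had the widest spread. Its turned ratios were 2.32 on slide 2, 3.50 on slide 3, -0.37 on slide 29, 0.31 on slide 30, -0.66 on slide 28 and 1.16 on slide 25. Both slides of pair 1 stood above the 4 other slides. The slides of pair 2 and of pair 3 each lay on opposite sides of 0. The pair ratios were 2.91, -0.030 and 0.25, and the value of pair 1 lay at percentile 99.7 of all rows in that pair. The mean over pairs was not separated from 0 (limma adjusted p = 0.742), with a 95% interval of -0.77 to 2.85. It was 0.11 without pair 1, 1.58 without pair 2 and 1.44 without pair 3.

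Hsp22 encodes a mitochondrial small heat shock protein. Its turned ratios were 1.31 on slide 2, 2.06 on slide 3, 0.66 on slide 29, 1.03 on slide 30, -0.21 on slide 28 and 0.48 on slide 25. It was the small heat shock gene whose ratio was also positive on both slides of pair 2, and 1 slide of pair 3 was negative. The pair ratios were 1.69, 0.85 and 0.14, and the mean had a limma adjusted p of 0.618 and an unadjusted p of 0.0503. The mean was 0.49 without pair 1, 0.91 without pair 2 and 1.27 without pair 3. In the Release 6 annotation Hsp22 overlaps CG4456 and shares its end with it. Whether this probe also binds transcripts of CG4456 was not tested.

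Hsp27 encodes a small heat shock protein of the nucleus. Its turned ratios were 0.99 and 1.27 on the slides of pair 1, -0.31 and -0.19 on slides 29 and 30, and -0.11 and 0.62 on slides 28 and 25. The slides of pair 1 were both positive and those of pair 2 both negative. The pair ratios were 1.13, -0.25 and 0.26 (limma adjusted p = 0.787 for the mean). The mean was 0.0020 without pair 1, 0.69 without pair 2 and 0.44 without pair 3.

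The spots within a slide showed which of these values rested on single spots. For Hsp26, with each column centred on its own median, all 6 spots of pair 1 were positive, with a low of 1.97, a median of 2.50 and a high of 4.85. On slide 3 the 3 spots ran from 2.14 to 4.85, a wider range than on any other slide for this gene. For Hsp22 the 6 spots of pair 1 lay between 1.14 and 2.29 and those of pair 2 between 0.40 and 1.25. For Hsp27 the 6 spots of pair 1 lay between 0.80 and 1.30, and the 6 spots of pair 2 lay between -0.43 and -0.079. Spots of a pair are technical repeats, and how many of all rows have spots set apart in this way was not counted.

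DnaJ-1, the J-domain partner of Hsp70, also stood highest in pair 1. Its turned ratios were 1.05 on slide 2, 0.71 on slide 3, -0.18 on slide 29, 0.15 on slide 30, -0.094 on slide 28 and 0.53 on slide 25. The slide 3 value was a mean of spots that disagreed. Spot set 1 stood at -1.79, and the other 2 sets stood at 1.91 and 1.92. The mean over pairs was 0.36 ± 0.463 (SD, n = 3, limma adjusted p = 0.724). Without spot set 1, a choice made after its value was seen, and with every column centred on its own median, slide 3 stood at 1.94, pair 1 at 1.49 and the mean over pairs at 0.56 (limma adjusted p = 0.726). With that spot and the same centring the mean was 0.36 (limma adjusted p = 0.714). The mean was 0.10 without pair 1 and 0.55 without pair 2.

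**Figure D2:**
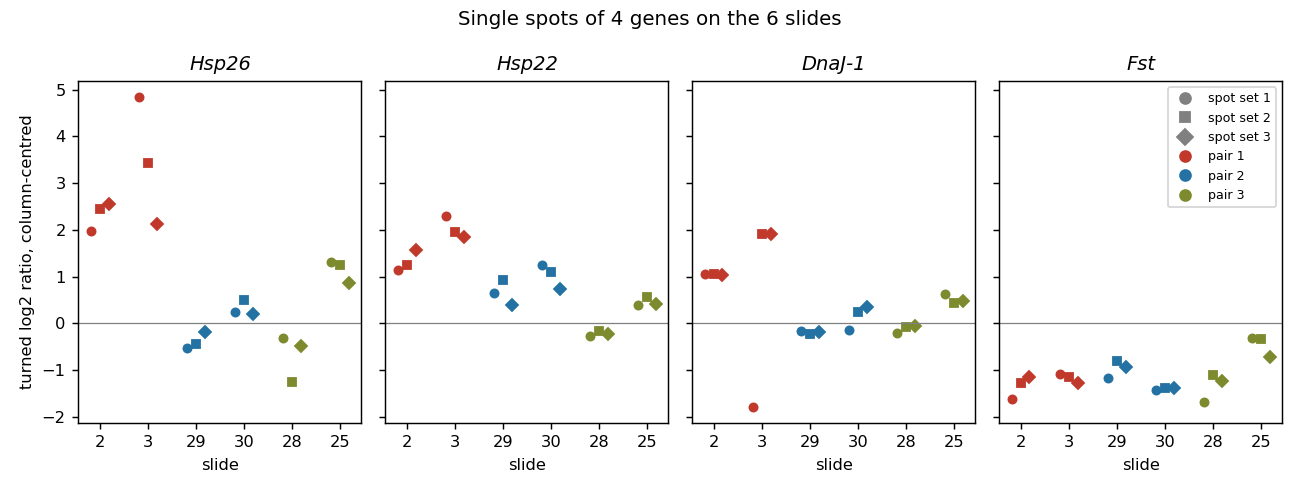
Turned log2 ratio of every spot, centred on the median of its column (vertical axis), for Hsp26, Hsp22, DnaJ-1 and Fst on the 6 slides (horizontal axis), with symbols for the spot set and colours for the flip pair. Spot set 1 of slide 3 lies at -1.79 for DnaJ-1 and at 4.85 for Hsp26, and all 18 spots of Fst lie below 0.

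Differences between pairs were tested by limma (an F statistic for pair, fitted to the 6 slides after turning, with orientation as a further term). An unadjusted p under 0.05 was found for 3 of the 9 members, Hsp26, Hsp27 and Hsp22, against 9.15% of all rows. The highest and lowest pair ratio were 2.94 apart for Hsp26, 1.55 for Hsp22 and 1.39 for Hsp27. After adjustment over all rows 0 of the 9 passed, against 0.106% of all rows, with limma adjusted p of 0.324 for Hsp26, 0.371 for Hsp27 and 0.447 for Hsp22. In the fit to the 3742 rows with all 18 values, Hsp26 passed (limma adjusted p = 0.0496). Its pair ratios were the same in that fit, but its limma unadjusted p was 0.00117 in place of 0.0128. limma shares variance over the rows fitted, so the choice of rows changed this p. For DnaJ-1 the pairs were 0.89 apart (limma adjusted p = 0.673). With every column centred on its own median they were 0.89 apart with the discordant spot (limma adjusted p = 0.681) and 1.50 apart without it (limma adjusted p = 0.44, unadjusted p = 0.0234). The slides of a pair are repeat hybridisations, so this test sets pairs against hybridisation noise and not against biological spread.

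Both slides of pair 1 were positive for 5 of the 9 members, the 3 small heat shock genes, DnaJ-1 and Hsc70-5, against 27.3% of all rows. Both were over 1 for 2 of the 9, Hsp26 and Hsp22, against 1.57%. The 6 slide values of the 3 small heat shock genes in pair 1 lay between 0.99 and 3.50. The 8 slide values of the 4 large chaperone genes lay between -0.45 and 0.26. These genes were chosen with results known, and how often groups of this size lie apart among all rows was not counted. In pair 2 the small heat shock genes ran from -0.37 to 1.03 and the large chaperone genes from -0.20 to 0.46. In pair 3 they ran from -0.66 to 1.16 and from -0.18 to 0.77. The classes overlapped in both of these pairs.

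The median ratio of the 3 small heat shock genes was 1.69, -0.030 and 0.25 in pairs 1, 2 and 3. The median of the 4 large chaperone genes was 0.014, 0.16 and 0.15. The small class therefore exceeded the large class by 1.67 in pair 1, fell below it by 0.19 in pair 2 and exceeded it by 0.099 in pair 3, with a mean difference of 0.53 ± 1.00 (SD, n = 3). By slide the difference was 1.24 and 2.13 in pair 1, -0.33 and -0.020 on slides 29 and 30, and -0.34 and 0.27 on slides 28 and 25. The mean difference was -0.048 without pair 1, 0.89 without pair 2 and 0.74 without pair 3. The members were chosen with results known, so no p is given for a class.

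**Figure D3:**
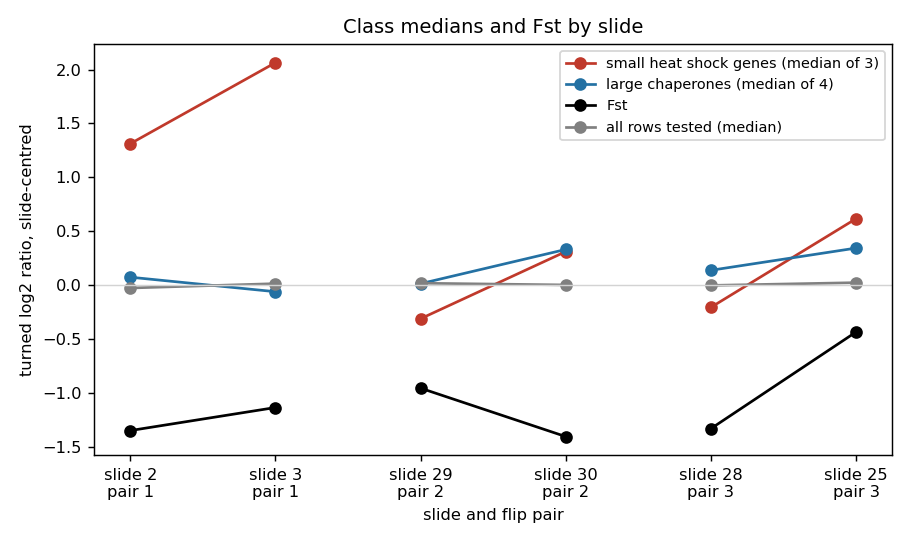
Turned, slide-centred log2 ratio (vertical axis) on each slide, grouped by flip pair (horizontal axis), as the median of the 3 small heat shock genes, the median of the 4 large chaperone genes, the value of Fst and the median of all 4723 rows, with lines joining the slides of a pair. The small class stood at 1.31 and 2.06 in pair 1 and between -0.31 and 0.62 on the other slides, and the large class lay between -0.061 and 0.34 on all 6.

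Hsp22, Hsp26 and Hsp27 also share a position. In the Release 6 gene order they lie in a single cluster, with CG4461 between Hsp22 and Hsp26, and with Hsp67Ba, an antisense RNA gene and Hsp23 between Hsp26 and Hsp27. No single-gene probe was annotated to those neighbours. The small heat shock transcripts are related in sequence, and cross-hybridisation among them on these spotted probes was not tested.

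Another gene of the small heat shock family, l(2)efl, lies outside the naming rule and had a positive ratio in every pair. It was the 1 gene on the array of 7 listed relatives of the family. Its turned ratios were 0.61 and 1.25 on slides 2 and 3, 1.18 and 0.45 on slides 29 and 30, and 0.26 and 0.94 on slides 28 and 25, positive on 6 of 6 slides. The pair ratios of 0.93, 0.82 and 0.60 gave a mean of 0.78 ± 0.169 (SD, n = 3), with an unadjusted p of 0.00217 and a limma adjusted p of 0.411. Its pairs were not separated in the F test (limma adjusted p = 0.869). Whether its pattern over pairs differs from that of the cluster genes was not tested.

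The large chaperone genes had means between 0.017 and 0.23, though Hsp60A stood farther from 0 in single pairs. Hsp60A, which encodes the mitochondrial chaperonin, had turned ratios of 0.061 and -0.45 on slides 2 and 3, 0.20 and 0.46 on slides 29 and 30, and 0.35 and 0.77 on slides 28 and 25. Its pair ratios were -0.19, 0.33 and 0.56, and its pairs were not separated in the F test (limma adjusted p = 0.727). For Hsp60A these pair ratios lay at percentiles 26.3, 84.8 and 95.1 of all rows in the respective pairs. The mean of 0.23 ± 0.385 (SD, n = 3) was not separated from 0 (limma adjusted p = 0.787), and it was 0.44 without pair 1 and 0.066 without pair 3.

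Hsc70-5, the mitochondrial Hsp70 gene, had the smallest spread of the 9 members. Its pair ratios were 0.15, 0.11 and 0.075, with a mean of 0.11 ± 0.0379 (SD, n = 3), and its SD lay at percentile 2.92 of all rows. Its 6 slide values ran from -0.18 to 0.33, so the small SD is one of pair means. Hsp110, which encodes a nucleotide exchange factor of Hsp70 and is also known as Hsc70Cb, had pair ratios of -0.0011, -0.088 and 0.14 and a mean of 0.017 ± 0.116 (SD, n = 3). Hsp60B, the chaperonin gene known for a role in sperm formation, had pair ratios of 0.029, 0.22 and 0.16 and a mean of 0.13 ± 0.0969 (SD, n = 3). One of its spots on slide 3 stood at -0.96 and the other 2 at 0.58 and 0.73. The limma adjusted p of these 3 genes was 0.796, 0.974 and 0.784, and their 95% intervals reached 0.37, 0.30 and 0.41 at the upper end.

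Fst lay on the other side of 0 from every heat shock gene mean. Its turned ratios were -1.35 on slide 2, -1.14 on slide 3, -0.96 on slide 29, -1.41 on slide 30, -1.33 on slide 28 and -0.43 on slide 25. All 6 slides were negative, and slide 25 was nearest to 0. All 18 spots were negative as well, with a low of -1.68, a median of -1.15 and a high of -0.31. Spots are technical repeats of the same slides, and the share of all rows with one sign on 18 spots was not counted. The pair ratios were -1.24, -1.18 and -0.88, which lay at percentiles 1.31, 1.55 and 3.85 of all rows in the respective pairs.

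The mean of Fst, -1.10, had an unadjusted p of 0.000694, a limma adjusted p of 0.411 and a 95% interval of -1.43 to -0.77. It ranged from -1.21 to -1.03 when any 1 pair was left out. Its pairs were 0.36 apart, which the F test did not separate (limma adjusted p = 0.887). With the 6 slides as units and the flip pair as a replicate block, Fst passed (limma adjusted p = 0.0453). The fit with a term for orientation added to the block gave 0.0788, and the fit with no block gave 0.0597. In these 3 fits each slide counts as a replicate of its own, although flip partners are repeat hybridisations.

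Against Fst, the small class was higher by 2.93, 1.15 and 1.13 in the 3 pairs and by 0.64 to 3.20 on single slides, positive on 6 of 6. The large class was higher than Fst by 1.26, 1.35 and 1.03, or 1.21 ± 0.162 (SD, n = 3), and by 0.78 to 1.74 on single slides. The distance between Fst and the large class thus varied less over pairs than that between Fst and the small class, 1.74 ± 1.03 (SD, n = 3).

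Part of each ratio did not turn with the dye flip. This part is the mean of the log2 ratios of the slides of a pair before turning, and its mean over pairs had an unadjusted p under 0.05 for 0 of the 9 members, against 9.19% of all rows. The turned sign was the same on both slides for 6 of the 9 members in pair 1, 5 in pair 2 and 2 in pair 3, against 56.1%, 55.4% and 43% of all rows. In pair 3 the part of Hsp26 that did not turn was -0.91 and the part that turned was 0.25, and for Hsp22 these were -0.34 and 0.14. In pair 1 the part that did not turn was -0.59 for Hsp26 and -0.38 for Hsp22, against turned parts of 2.91 and 1.69. For Fst it was -0.11, -0.22 and -0.45 in pairs 1, 2 and 3. In pair 3 the small heat shock ratios were therefore smaller than the part that moved with the channel, whereas the ratio of Fst was larger than that part in each pair.

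**Figure D4:**
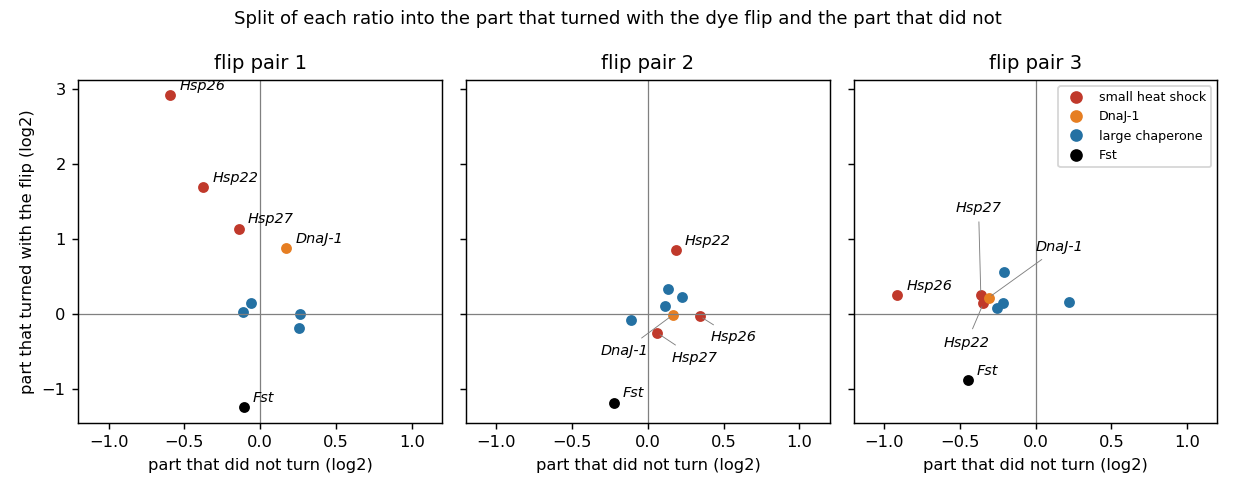
For each flip pair, the part of the log2 ratio that turned with the dye flip (vertical axis) against the part that did not turn (horizontal axis), with 1 point per gene coloured by class. Hsp26 lies at 2.91 on the vertical axis in pair 1, and at -0.91 on the horizontal axis with 0.25 on the vertical axis in pair 3.

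Across the 9 members, the turned values of the slides of a pair correlated with r = 0.94 in pair 1, 0.89 in pair 2 and 0.29 in pair 3, and across all 4723 rows with r = 0.20, 0.38 and 0.087. These are correlations across genes that share the slide and its RNA, and genes are not independent replicates. Some slides of different pairs reached similar values. Across the members slides 2 and 25 correlated with r = 0.86, but across all rows the same slides had r = -0.19. Slides 29 and 25 correlated across all rows with r = 0.27, above pairs 1 and 3. Both carried cornmeal RNA in channel 1, and the part of the channel in that value was not tested.

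The patterns nearest to 4 members were taken as the named genes with the smallest root mean square difference over the 6 slides. For Fst these were CG7298 (a difference of 0.283), CG10912 (0.379) and the serine protease gene yip7 (0.409). All were negative on 6 of 6 slides, as genes chosen for being near Fst on those slides are likely to be. For Hsp22 they were the chitin synthase gene kkv (0.476), the juvenile hormone-inducible gene JhI-26 (0.479) and CG8192 (0.521). For Hsp26 the nearest genes were farther off, with Hil (0.783), CG6785 (0.842) and Hsp22 itself (0.943). For DnaJ-1 they were the claudin gene sinu (0.218), the alpha-actinin gene Actn (0.233) and nst (0.275).

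Few genes of the wider chaperone network had an unadjusted p under 0.05. The list drawn up for J-domain co-chaperones other than DnaJ-1 held 19 tested genes. Of these, 0 had an unadjusted p under 0.05 with a positive ratio, against 4.4% of all rows, and 1 had one with a negative ratio, against 3.64%. Their median ratio was -0.0089, where the median of all rows was 0.00031. The list included Sbds and bc10, and whether each listed gene encodes a J-domain was not checked. The leading genes by p were Rme-8, an endocytic J-domain gene, at -0.37 ± 0.165 and shv at -0.19 ± 0.169 (SD, n = 3 each), with limma adjusted p of 0.578 and 0.733. Rme-8 was positive on 2 of 6 slides, among them slide 3 at 0.73.

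Among 12 tested cofactors and regulators of Hsp70 and Hsp90, 0 had an unadjusted p under 0.05 with a positive ratio, against 4.4% of all rows, and 1 had one with a negative ratio, against 3.64%. Their median ratio was -0.018. The leading genes were Grp170, a large Hsp70 relative of the endoplasmic reticulum, at -0.41 ± 0.264 and zda at 0.25 ± 0.0445 (SD, n = 3 each), with limma adjusted p of 0.601 and 0.618. Hsf, the factor that drives the heat shock genes, had pair ratios of 0.028, -0.28 and -0.25 and a mean of -0.17 ± 0.17 (SD, n = 3), with a limma adjusted p of 0.766. These are transcript ratios, Hsf activity was not measured, and whether Hsf took part in the small heat shock ratios was not tested.

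Other stress lists each held 1 gene of 9 with an unadjusted p under 0.05, against 8.05% of all rows, which is near the background. Of the 9 tested genes in the list of Turandot and other stress-induced genes, the 1 such gene was CG10912. It stood at -1.23 ± 0.307 and was negative on 6 of 6 slides, with Irc, the immune-regulated catalase gene, next at -0.24 ± 0.195 (SD, n = 3 each). These 9 included no gene of the Turandot family itself, so the list gives no result for that family. The list median was -0.022. Of 9 antioxidant genes, the 1 such gene was Gclm, the modifier subunit gene of glutathione synthesis, at 0.76 ± 0.153 and positive on 6 of 6 slides, with the thioredoxin gene dhd next at 0.22 ± 0.121 (SD, n = 3 each). The list median was -0.038. The limma adjusted p was 0.411 for CG10912 and Gclm, 0.699 for Irc and 0.662 for dhd.

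Of the moulting genes 2 differed between the pairs after adjustment, and sarcomere genes had positive list medians in all 3 pairs. Of 24 tested moulting, cuticle and ecdysone-response genes, 13 had an unadjusted p under 0.05 for pair differences, against 9.15% of all rows, and 2 had an adjusted p under 0.05. These 2 were the cuticle gene TwdlF, at 5.78, 2.44 and -4.89 in the 3 pairs, and Osi14, at 5.25, 2.13 and -2.41 (limma adjusted p = 0.0381 for both). The median of that list was 0.32 in pair 1, 0.28 in pair 2 and -0.29 in pair 3.

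By the diet test, 1 gene of 24 in the moulting list had an unadjusted p under 0.05 with a positive ratio, against 4.4% of all rows, and 1 with a negative ratio, against 3.64%. These shares were near the background. The genes were the cuticle gene Cpr72Ea at 0.65 ± 0.0575 and the nuclear receptor gene Hr39 at -0.42 ± 0.0742 (SD, n = 3 each), with limma adjusted p of 0.411 and 0.461. Of 12 tested sarcomere genes, 6 had an unadjusted p under 0.05 with a positive ratio, against 4.4% of all rows, 0 had one with a negative ratio, and 0 passed after adjustment. Their list median was 0.50, 0.30 and 0.27 in the 3 pairs, and the leading genes were the projectin gene bt, at 0.55 ± 0.211, and the troponin T gene up, at 0.45 ± 0.145 (SD, n = 3 each), with limma adjusted p of 0.461 for both. The part of stage or tissue composition in the small heat shock ratios was not tested.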

How the data were processed

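The authors deposited 1 table of log2 ratios of the channels, 1 column per spot set. Scanning, background correction and normalisation are not given in the sources used here, nor are the dyes, the direction of the ratio or the base of the logarithm. That the base is 2 was inferred from the range of -16.02 to 13.21. Column medians lay between -0.69 and 0.35, and within a slide they differed by 0.278 to 0.96 between spot sets.

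For each slide the mean over its 3 spot sets was taken and its median subtracted, probes of 1 gene were averaged, slides with cornmeal RNA in channel 1 were turned in sign, and the slides of a flip pair were averaged. The flip partner of each slide comes from the labels. The flip pair was the unit (n = 3). limma 3.58.1 in R 4.3.3 tested 4723 rows with values on all slides, two-sided, with Benjamini-Hochberg adjustment at 0.05, with 2 residual and 2.12 prior degrees of freedom. The procedure was tried on simulated data. For the F test, simulated rows without a planted pair difference had no spread between pairs, unlike the data, so that trial cannot vouch for the pair differences reported here. Figures were drawn with matplotlib 3.10.9.

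The members and the gene lists were chosen with earlier results of these data known. Named were all members, the 2 genes of each list with the smallest p, and the 3 genes most like each of 4 members. Hsf, TwdlF and Osi14 were named after their values were seen. Hsp110 was placed with the large chaperones through its older symbol Hsc70Cb. Gene names come from the platform annotation, and the identifiers and symbols of all 9 members matched the Release 6 gene table. The probes come with no named genome build, so coordinates are left out.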

Additional observations from a re-analysis of the deposited data

Results flagged for a closer look

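Hsp27 drew attention because both slides of pair 1 were positive and both slides of pair 2 were negative. Its highest and lowest pair ratios were 1.39 apart on the log2 scale (limma F test, adjusted p = 0.371, unadjusted p = 0.0175), so the difference was not separated after adjustment over all rows. Each gene was also examined for a value far from the others by Dixon's criterion, over its 6 slides and over the spots of each channel arrangement. Of these 27 groups 0 held one.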

How the results depend on the processing

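The mean ratios of Fst, DnaJ-1, Hsp60A and Hsp60B kept their sign in all alternatives tried. If the table was already turned for the dye flip when deposited, the mean would be -0.18 for Hsp22, -0.39 for Hsp26, -0.15 for Hsp27, -0.069 for Hsc70-5 and -0.023 for Hsp110, that of Fst would be -0.26, the median of the large chaperones would be 0.00080, the small class would differ from the large class by -0.19, and 0 members would have an unadjusted p under 0.05. Hsp110 was also negative with the median over spot sets, at -0.018, and ranged from -0.045 to 0.070 when a pair was left out (negative without pair 3). The cause of these sign changes was not tested. Before turning, the slides of pairs 1, 2 and 3 correlated across all 4723 rows with r = -0.20, -0.38 and -0.087. Whether the table was already turned was not tested further.

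Members with an unadjusted p under 0.05 numbered 2 in place of 1 with the median over spot sets, the probe with the most values, probes with both slides of a pair, rows with all 18 values, slides as units with or without a block, and no shared variance, and 1 to 2 when a pair was left out. For diet, 0 rows passed the adjusted threshold with pairs as the unit (380 at an unadjusted p under 0.05, 577 without pair 1 and 210 without pair 2). The flip pair as a replicate block on 6 slides gave 20, with an estimated correlation between slides of a pair of -0.089. The block with an orientation term, added after the data were seen, gave 1, with a correlation of 0.10, and slides with no block gave 1. For pair differences, 5 rows passed, and 12 without centring, 26 with the median over spot sets and 11 with the probe with the most values. Among the rows with all 18 values 88 passed. There fewer rows were tested, and the variance that limma shares over rows came from those rows alone. With the class of large chaperones without Hsp110, chosen after the data were seen, the small class exceeded it by 0.50. Without background signals, how far the spots lay above background is unknown.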
